A study of Mus musculus with 62 samples.

Results

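Polyamine metabolism was followed in the mouse diaphragm, the main breathing muscle, through 10 genes: Odc1, Amd1, Amd2, Srm and Sms for synthesis, Smox and Sat1 for breakdown, and Oaz1, Oaz2 and Azin1 for control of the first step. They were chosen as a list by name from the 47643 genes of the expression table, and all 10 were found in it. Bulk RNA-sequencing had been done on 62 diaphragms, and each value is given as TPM, a transcript level corrected for gene length and scaled to a sum of 1000000 in each library.

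The mice were female and 2 months old, and the same 3 groups were sampled at 2, 4, 6 and 8 weeks post injection. One group carried cachectic melanoma cells, a patient-derived tumor that causes body wasting (cachexia), a second carried non-cachectic melanoma cells from another patient-derived tumor, and the controls were mock injected with buffer. Each of the 12 conditions held 5 mice, except the cachectic group at 8 weeks, which held 7. Each melanoma type is represented by a single tumor stock, so that the tumor and the capacity to cause cachexia cannot be told apart. The sources differ on the host: the sample labels give the strain C57BL6/J, whereas the design text and the methods give NCI Ath/nude mice, a host without T cells, for all groups.

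Polyamines are small positively charged molecules that bind RNA and DNA and are needed for growth and protein synthesis. Ornithine decarboxylase (Odc1) makes putrescine, and S-adenosylmethionine decarboxylase (Amd1, Amd2) supplies the aminopropyl group with which spermidine synthase (Srm) and spermine synthase (Sms) extend it to spermidine and spermine. Spermidine/spermine acetyltransferase (Sat1) acetylates both products for export or oxidation, and spermine oxidase (Smox) turns spermine back into spermidine. Antizymes (Oaz1, Oaz2) bind ornithine decarboxylase and send it to the proteasome, and the antizyme inhibitor (Azin1) takes antizyme away from it. Only transcript levels were measured here, not polyamines, proteins or enzyme activity.

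In brief, Sat1 was the member that rose in cachectic mice, at 6 and at 8 weeks and against both other groups, while Sms fell at 8 weeks against both. The calls against control held without any single mouse, whereas those of Sat1 at 6 weeks and of Sms at 8 weeks against non-cachectic mice were each lost without at least 1 mouse. Oaz2 and Amd2 fell at 8 weeks against control, and each of these calls was lost when single mice were left out. Against non-cachectic mice neither passed the test. The gap between both differences equals that of non-cachectic from control mice, in which no member was called at 8 weeks by limma. Azin1 and Amd2 were lower at 2 weeks, in a comparison in which the median of all genes was lower too. Odc1, Amd1, Srm, Smox and Oaz1 passed the test in no comparison between groups. These calls are those of the reported fit. Some other fits called further members at 6 weeks, such as Sms and Oaz2, whereas Dunn's test on ranks called no member then.

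The libraries were first compared. Skeletal muscle markers were high in all mice, with a summed level of 45140 to 100790 TPM over 10 genes, which were all detected. 4 libraries stood apart. At 2 weeks these were replicates 3 and 4 of the cachectic group and replicate 5 of the non-cachectic group, and at 8 weeks it was replicate 3 of the cachectic group. They listed 15069 to 16389 genes above 0 against at least 17909 in the other 58, and 54.4 to 61.5% of their TPM came from mitochondrially encoded genes against at most 50.05% in the others. Odc1, Amd2, Srm, Sms, Smox and Oaz2 were lower in all 4 of these libraries than in every mouse of the same condition whose library did not list few genes, whereas Sat1 and Oaz1 were so in 2 of the 4. The 8-week library was left out as an alternative, and members and related genes whose 8-week values are described below are given without it too where it moved them. Another 4 libraries, control replicates 2, 4 and 5 at 2 weeks and cachectic replicate 5 at 6 weeks, held high liver transcripts, with a mean level of 7.82 to 10.23 over 12 liver markers on the log2(TPM + 1) scale against a median of 2.26 over all mice.

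The members covered a wide range of levels. Oaz1 had the highest median over the 62 mice (191 TPM), at the 97th percentile of the genes tested, and Oaz2 followed with 119 TPM. Odc1 (36.1 TPM) and Amd1 (35.04 TPM) came next and their ranges over the 20 control mice overlapped almost fully, at 24.7 to 42.6 and 29.2 to 43.7 TPM. Sat1 had a median of 20.4 TPM, Azin1 of 14.6, Sms of 14.1 and Srm of 12.4, and neighbours in this order again overlapped among the control mice. Smox (5.08 TPM) and Amd2 (4.03 TPM) were lowest. The level was at least 1 TPM in at least 60 of 62 mice for each member, so that all 10 passed the filter for testing, which no member owed to a single group. In the control mice, Oaz1 and Sms varied least among the members, with a coefficient of variation over 20 mice of 7.28% and 7.75%, and Srm varied most, with 19.3%.

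**Figure D1:**
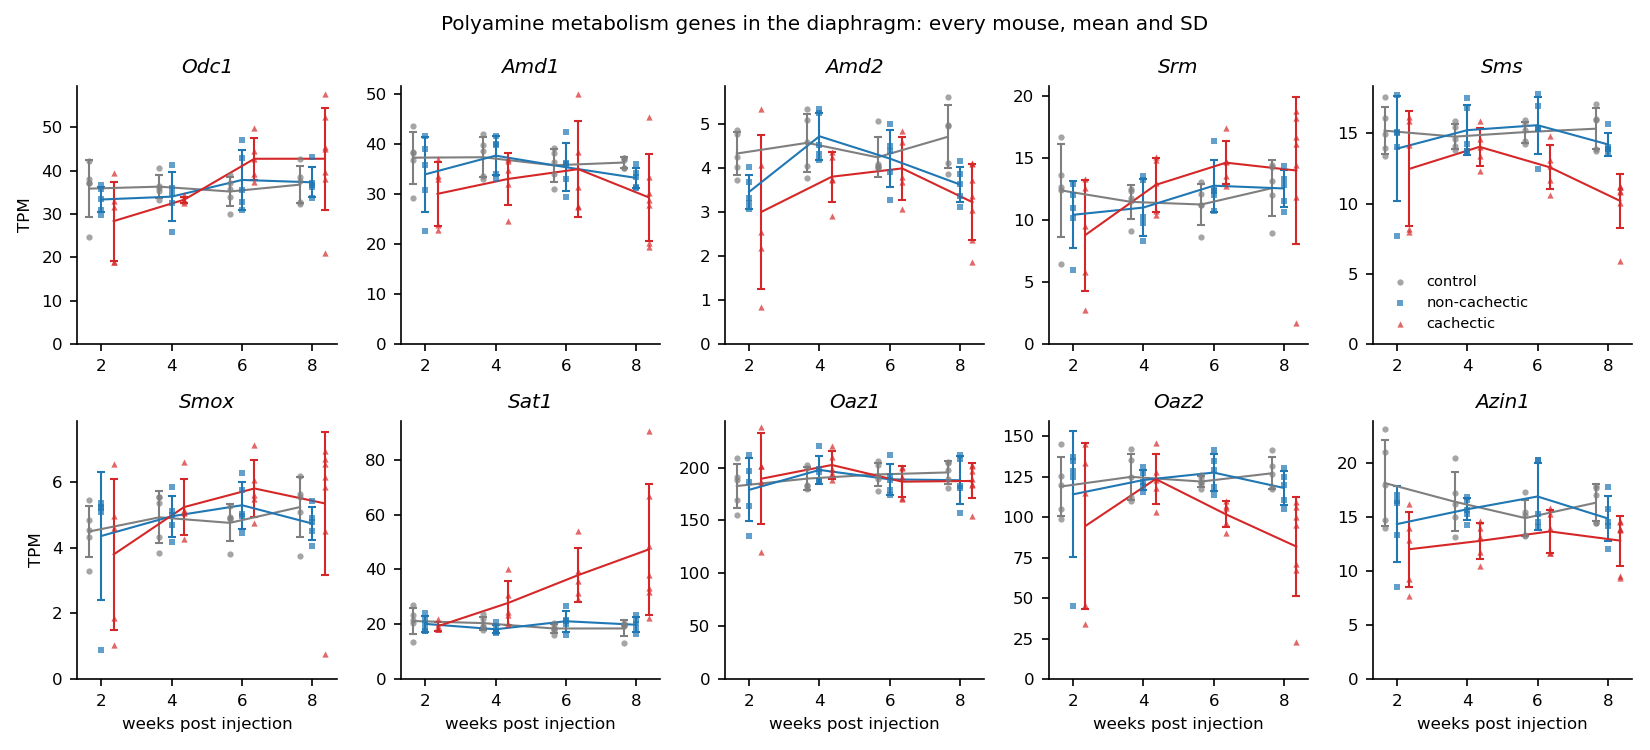
TPM of each member (vertical axes, each from 0) against weeks post injection, with a point for every mouse, lines through the group means and bars of 1 SD; gray circles are control, blue squares non-cachectic and red triangles cachectic mice. Sat1 climbed to a mean of 47.3 TPM in cachectic mice at 8 weeks against 18.5 in control mice, whereas Sms and Oaz2 declined to 10.2 and 82.0 TPM.

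Differences between groups were tested with limma on log2(TPM + 1) over 13578 genes in all 62 mice, and a gene was called at a Benjamini-Hochberg adjusted p under 0.05. A log2 difference below is the difference of group means on that scale, cachectic minus the other group unless stated, with its 95% confidence interval. At 8 weeks against control, 4 of 10 members were called, 1 higher and 3 lower, where 14.8% of all genes were called (6.65% higher and 8.12% lower). Against non-cachectic mice, 2 of 10 were called, 1 higher and 1 lower, where the background was 12.9% (6.75% higher and 6.19% lower). At 6 weeks, 1 of 10 was called against each group, Sat1 both times, where 6.79% of all genes were called against control (5.62% higher, 1.17% lower) and 5.85% against non-cachectic mice (4.28% higher, 1.57% lower). The members' median log2 difference against control at 8 weeks was -0.22, beside -0.09 over all genes tested. The comparisons with control and with non-cachectic mice share the cachectic libraries, so that they are not independent of each other. Separate animals were labelled as replicates, and the limma p-values rest on a spread between mice that is pooled over all 12 conditions. They therefore also depend on mice outside the groups compared.

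Among the genes of synthesis, Odc1, the enzyme that commits ornithine to polyamines, ranged from 30.1 to 39.1 TPM in control mice at 6 weeks and from 37.3 to 49.9 TPM in cachectic mice. 4 of 5 cachectic mice lay above all controls, but the log2 difference of 0.27 (-0.06 to 0.60) was not called (adjusted p = 0.373 by limma). It was called in a fit of the compared groups alone, but not by Dunn's test on ranks (adjusted p = 0.142). At 8 weeks the cachectic mice spread from 20.98 to 57.6 TPM around a median of 45.0, and controls from 32.3 to 42.6 TPM. The cachectic range enclosed that of the controls, with 4 of 7 mice above and 1 below it. The log2 difference was 0.16 (adjusted p = 0.54 by limma) and 0.32 (adjusted p = 0.0933) without the library with few genes, which was the lowest of the 7.

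S-adenosylmethionine decarboxylase is encoded by a pair of genes on chromosome 10 that are almost identical. Amd1 lies at chr10:40287458-40302186 on the minus strand with 8 exons (build GRCm38, GENCODE annotation), and Amd2 at chr10:35708675-35711892 on the same strand with 1 exon. Their coding sequences are 1002 bases each and identical at 1001 of them. The exception is G796C, with the base of Amd1 first and positions counted from 1 at the start of the coding sequence. It is shown here within the stretch from base 766 to 825 of both genes, with the differing base in capitals, because a read that misses it cannot be assigned within the coding part. The Amd1 stretch lies at chr10:40290157-40290216 and the Amd2 stretch at chr10:35710735-35710794, both read 5′ to 3′ on the minus strand from the GENCODE transcripts.

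Amd1: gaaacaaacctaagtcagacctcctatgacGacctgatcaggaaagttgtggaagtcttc
Amd2: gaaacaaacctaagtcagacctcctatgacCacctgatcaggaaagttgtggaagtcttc

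Of all stretches of 100 bases, the length of the reads, 73.2% of those in the Amd1 transcript occur in that of Amd2, and 72.9% the other way round. How shared reads were divided is not given in the sources used here, so the split between both genes is uncertain and their summed TPM was also compared.

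Amd2 was lower in cachectic mice at 8 weeks. It ranged from 1.85 to 4.12 TPM (median 3.35) in the 7 cachectic mice, and control mice held 3.87, 4.94, 5.62, 4.98 and 4.11 TPM. 5 of 7 cachectic mice lay below all controls, and the groups overlapped through the other 2. The log2 difference was -0.45 (-0.76 to -0.14, adjusted p = 0.0378 by limma), and it was -0.36 (adjusted p = 0.0909) without cachectic replicate 3. The call was also lost without cachectic replicate 1 or 4 or without control replicate 2, 3 or 4 (adjusted p = 0.0517 to 0.118 by limma). Against non-cachectic mice, which held 3.12 to 4.15 TPM, the difference was -0.15 (adjusted p = 0.592). Amd1 had a mean of 29.4 ± 8.75 TPM (SD, n = 7) in cachectic mice and 36.3 ± 1.03 TPM (n = 5) in control mice at 8 weeks, with 6 of 7 below all controls and 1 at 45.5 TPM above them. Its log2 difference of -0.35 was not called (adjusted p = 0.112 by limma), and it was -0.27 (adjusted p = 0.218) without cachectic replicate 3. The sum of both genes was 32.6 ± 9.49 TPM against 41.0 ± 1.43 TPM, a log2 difference of -0.37 that an exact two-sided permutation test did not separate from the spread (p = 0.0682, adjusted p = 0.362 over 12 comparisons). It was -0.29 without cachectic replicate 3 (exact permutation p = 0.11). Of the 12 comparisons of the sum, the lowest p was that of non-cachectic against control mice at 8 weeks. The sum was 36.9 ± 1.98 TPM there against 41.0 ± 1.43 TPM, with 4 of 5 non-cachectic mice below all controls. The log2 difference was -0.15 (exact permutation p = 0.0159, adjusted p = 0.191). Amd2 alone gave -0.30 in that comparison (exact permutation p = 0.0317, adjusted p = 0.119).

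Srm, which makes spermidine, had 4 of 5 cachectic mice above all controls at 6 weeks, at 12.7 to 17.4 TPM against 8.65 to 13.05 TPM. The log2 difference was 0.35 (-0.25 to 0.96, adjusted p = 0.55 by limma). It was called in a fit of the compared groups alone, but not by Dunn's test on ranks (adjusted p = 0.102). At 8 weeks, 5 of 7 cachectic mice lay above the highest control of 14.5 TPM, 1 of them only just (14.456 against 14.453 TPM). Of the others, 1 lay at 11.9 TPM and the library with few genes at 1.70 TPM. The log2 difference was -0.04 (adjusted p = 0.943 by limma) with that library and 0.33 (adjusted p = 0.288) without it, and it was also above 0 without control replicate 3 (0.0069) or 5 (0.0031).

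Sms, which makes spermine, was the member of the synthesis group with the clearest difference. At 8 weeks the cachectic mice held 5.91 to 11.2 TPM with a median of 10.9, control mice held 13.7, 15.9, 17.05, 16.01 and 13.8 TPM, and non-cachectic mice held 13.9, 13.99, 13.7, 13.8 and 15.6 TPM. All 7 cachectic mice lay below every mouse of both other groups, and 6 of the 7 fell within 10.05 to 11.2 TPM. The mean of 10.2 ± 1.93 TPM (SD, n = 7) was 33.5% below the 15.3 ± 1.46 TPM of control mice (n = 5). The log2 difference was -0.56 (-0.84 to -0.28, adjusted p = 0.00303 by limma) against control and -0.46 (-0.74 to -0.18, adjusted p = 0.0181) against non-cachectic mice. Against control, Sms ranked 1185 of 13578 genes from the lowest difference. Without cachectic replicate 3, the differences were -0.45 (adjusted p = 0.00952) and -0.35 (adjusted p = 0.0519), so that the second call was lost. It was also lost without non-cachectic replicate 5 (adjusted p = 0.0552). At 6 weeks, 4 of 5 cachectic mice lay below all controls, with a log2 difference of -0.25 (adjusted p = 0.362 by limma). This difference was called in a fit of the compared groups alone and without the libraries with few genes. Dunn's test on ranks did not call it (adjusted p = 0.125).

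Sms and Sat1 are both on the X chromosome, on the minus strand and 2227406 bases apart, Sms at chrX:157443855-157492287 and Sat1 at chrX:155213132-155216449 (GRCm38). The windows from 250 bases before to 50 bases after the start site are shown for the 3 members with the largest differences, Sat1, Sms and Oaz2. They were taken from RefSeq (GRCm38.p6), which gave such windows for 8 of the 10 members, and Srm and Azin1 had none. They lie at chrX:155216400-155216699 on the minus strand for Sat1, chrX:157492238-157492537 on the minus strand for the more upstream of 2 windows of Sms, and chr9:65676298-65676597 on the plus strand for Oaz2. Capitals mark the GC box GGGCGG and the E-box CACGTG on either strand.

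Sat1: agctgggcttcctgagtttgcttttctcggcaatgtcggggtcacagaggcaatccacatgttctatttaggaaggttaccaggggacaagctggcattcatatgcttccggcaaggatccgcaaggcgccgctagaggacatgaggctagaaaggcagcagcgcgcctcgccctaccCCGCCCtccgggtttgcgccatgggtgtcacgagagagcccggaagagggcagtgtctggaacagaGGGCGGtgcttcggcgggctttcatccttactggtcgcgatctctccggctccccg
Sms: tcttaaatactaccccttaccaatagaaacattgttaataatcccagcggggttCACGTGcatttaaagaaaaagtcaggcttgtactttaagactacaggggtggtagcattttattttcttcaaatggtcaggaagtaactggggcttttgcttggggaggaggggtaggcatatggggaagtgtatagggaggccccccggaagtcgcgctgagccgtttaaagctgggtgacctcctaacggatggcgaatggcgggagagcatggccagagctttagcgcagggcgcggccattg
Oaz2: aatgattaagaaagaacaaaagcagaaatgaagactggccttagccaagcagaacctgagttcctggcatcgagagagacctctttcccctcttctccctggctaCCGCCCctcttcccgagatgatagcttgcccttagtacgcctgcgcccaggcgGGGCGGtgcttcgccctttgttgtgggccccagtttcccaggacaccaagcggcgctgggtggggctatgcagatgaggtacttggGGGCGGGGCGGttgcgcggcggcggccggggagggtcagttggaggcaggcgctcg

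The Sat1 window holds 2 GC boxes, the Sms window shown holds 1 E-box and the Oaz2 window holds 4 GC boxes, of which the last 2 overlap by a base. The other Sms window, at chrX:157491319-157491618, holds 4 GC boxes and no E-box, with a GC content of 74.3% against 50.3% in the one shown. Over 32851 windows of the same length, 35.7% hold a GC box and 7.15% an E-box, read on both strands. Of the 9 member windows, 6 hold a GC box, and 1 holds an E-box. Neither the STAT motif TTCNNNGAA (8.3% of all windows) nor the AP-1 motif TGANTCA (7.81%) was found in them, and CCAAT (37.4%) was found in those of Amd2, Sms and Oaz1. These matches describe letters only. The Amd2 window shares with that of Amd1 a run of 48 bases that begins at its start site, and its GC content is 40.7% against 63.0%.

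Of the 2 breakdown enzymes, Sat1, the acetyltransferase that limits the turnover of spermidine and spermine, was the member with the largest difference. At 6 weeks the cachectic mice held 54.1, 39.3, 29.1, 35.8 and 31.4 TPM, the control mice held 19.5, 16.2, 20.4, 17.8 and 18.4 TPM, and the non-cachectic mice held 21.1, 21.6, 20.3, 26.6 and 15.99 TPM. The lowest cachectic mouse lay above the highest mouse of both other groups. At 8 weeks the cachectic mice ranged from 22.4 to 90.4 TPM with a median of 37.9, while control mice held 13.3, 19.7, 20.4, 19.5 and 19.6 TPM and non-cachectic mice 23.3, 16.4, 21.6, 17.96 and 19.96 TPM. All 7 cachectic mice lay above every control, and 6 of 7 lay above every non-cachectic mouse. The exception was the library with few genes.

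The mean of Sat1 was 37.9 ± 9.89 TPM (SD, n = 5) in cachectic mice at 6 weeks, 106% above the 18.5 ± 1.59 TPM of control mice. At 8 weeks it was 47.3 ± 23.8 TPM (n = 7), 156% above control (18.5 ± 2.93 TPM). The log2 differences at 6 weeks were 0.97 (0.56 to 1.38, adjusted p = 0.00132 by limma) against control and 0.80 (0.39 to 1.21, adjusted p = 0.00992) against non-cachectic mice. At 8 weeks they were 1.19 (0.81 to 1.56, adjusted p = 8.73e-06) and 1.09 (0.71 to 1.46, adjusted p = 3.91e-05). Against control, Sat1 ranked 293 of 13578 genes from the highest difference at 6 weeks and 158 at 8 weeks. Without cachectic replicate 3 at 8 weeks, the differences were larger, at 1.34 (adjusted p = 1.22e-07) and 1.24 (adjusted p = 7.1e-07). The comparison with non-cachectic mice at 6 weeks lost its call without cachectic replicate 1, the highest of the 5 (log2 difference 0.67, adjusted p = 0.0744).

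Smox, the spermine oxidase, gave no call. Its mean was 5.81 ± 0.88 TPM (SD, n = 5) in cachectic and 4.76 ± 0.56 TPM in control mice at 6 weeks, with 4 of 5 cachectic mice above all controls and a log2 difference of 0.24 (adjusted p = 0.678 by limma). At 8 weeks the cachectic mice ranged from 0.77 to 6.96 TPM and control mice from 3.76 to 6.18 TPM. The lowest value was again that of the library with few genes, and the log2 difference was -0.09 (adjusted p = 0.864) with it and 0.19 (adjusted p = 0.615) without it.

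In bulk tissue, fewer cells of a type and less RNA per cell cannot be told apart, and some markers of other cell types also differed in the comparisons in which Sat1 was called. The summed level of 8 macrophage markers was 139 to 387 TPM (median 250) in cachectic mice at 8 weeks, 104 to 161 TPM (median 124) in control and 90.04 to 226 TPM (median 115) in non-cachectic mice. At 6 weeks it was 148 to 266 TPM in cachectic 94.8 to 149.97 TPM in control mice and 96.8 to 265 TPM in non-cachectic mice, so that the groups overlapped. 5 of the 8 genes were higher at 8 weeks against each group, 4 of 8 were higher against control at 6 weeks and 3 of 8 against non-cachectic mice, with none lower. Neutrophil markers summed to 8.57 to 72.9 TPM in cachectic 4.01 to 14.3 TPM in control and 8.23 to 13.1 TPM in non-cachectic mice at 8 weeks, and 2 of the 3 that could be tested were higher against each group. No macrophage marker was at 0 in any of these groups, and of the neutrophil markers Camp was at 0 in all non-cachectic mice at 8 weeks. Their part in the Sat1 result was not tested. The fibroblast list had 1 gene higher and 3 lower of 7 at 8 weeks against control, the adipocyte list 1 higher and 1 lower of 7, the endothelial list 1 lower of 7, the skeletal muscle list 1 higher and 1 lower of 10, and the liver, erythroid and mesothelial lists had no gene called in that comparison by limma. At 6 weeks the skeletal muscle list had 3 genes higher and 1 lower of 10 against control, with a median log2 difference of 0.34, and 2 higher and 1 lower against non-cachectic mice, with a median of 0.41, beside 0.17 and 0.14 over all genes tested. The part of this in the Sat1 result was not tested.

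The antizymes are made through a shift of the reading frame at an early stop codon. This site is shown for both, as 27 bases with the stop codon TGA in capitals, because it sets the antizymes apart from the other members, and 25 of the bases are identical between both. The Oaz1 site lies at chr10:80828283-80828309 and the Oaz2 site at chr9:65686260-65686286, both on the plus strand (GRCm38, GENCODE transcripts). 68 codons precede the stop in Oaz1 and 32 in Oaz2, and in both the annotated coding sequence skips 1 base there and runs to 227 and 189 codons.

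Oaz1: cggtggtgctccTGAtgtccctcaccc
Oaz2: ctgtggtgctccTGAtgcccctcaccc

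Oaz1, the most abundant member, had condition means between 179 and 202 TPM. At 8 weeks it was 187 ± 16.5 TPM (SD, n = 7) in cachectic, 195 ± 10.6 TPM (n = 5) in control and 188 ± 22.5 TPM (n = 5) in non-cachectic mice. All 3 groups overlapped, and the log2 difference against control was -0.06 (-0.27 to 0.14, adjusted p = 0.741 by limma). Its interval is the narrowest among the members in that comparison.

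Oaz2 was lower in cachectic mice. At 8 weeks they held 71.3, 67.6, 23.1, 106, 109.7, 95.4 and 100.1 TPM, control mice held 118, 127, 132, 142 and 119 TPM, and non-cachectic mice held 125, 130.3, 105, 119.8 and 110.5 TPM. All 7 cachectic mice lay below every control and 5 of 7 below every non-cachectic mouse, and the library with few genes was again the lowest. The mean of 82.0 ± 30.7 TPM (SD, n = 7) was 35.6% below that of control (127 ± 9.95 TPM, n = 5). The log2 difference was -0.76 (-1.27 to -0.25, adjusted p = 0.0327 by limma) against control, rank 522 of 13578 from the lowest. It was -0.66 (-1.16 to -0.15, adjusted p = 0.0801) against non-cachectic mice, and was called there without cachectic replicate 5 (-0.75, adjusted p = 0.0417). Without cachectic replicate 3 the difference was -0.38 (adjusted p = 0.252) against non-cachectic mice. Against control it was then -0.49 and no longer called (adjusted p = 0.115), and the call was also lost without cachectic replicate 1 or 2 or without control replicate 2, 3 or 4 (adjusted p = 0.0533 to 0.0771). When all 4 libraries with few genes were set aside, it was again -0.49, with an adjusted p of 8.94e-05 by limma. Of these libraries only cachectic replicate 3 belongs to this comparison, and the others are 2-week mice. The difference is thus that of leaving out replicate 3 alone, and the smaller p comes with the spread pooled over all conditions. It adds no support from the mice compared. At 6 weeks all 5 cachectic mice (90.4 to 109.9 TPM) lay below every control (117 to 126 TPM) and every non-cachectic mouse (114 to 141 TPM). The log2 differences of -0.26 and -0.32 were nevertheless not called (adjusted p = 0.641 and 0.598 by limma). Oaz2 was called against both groups at 6 weeks in a fit of the compared groups alone. It was also called without the 4 libraries with few genes. None of these libraries is from 6 weeks, so that the differences stayed the same there. Dunn's test on ranks gave an adjusted p of 0.164 and 0.128.

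Azin1, the antizyme inhibitor, had a mean of 12.8 ± 2.32 TPM (SD, n = 7) in cachectic and 16.3 ± 1.71 TPM (n = 5) in control mice at 8 weeks, with 5 of 7 below all controls. The log2 difference of -0.34 (-0.63 to -0.05) was not called (adjusted p = 0.116 by limma), and it was -0.28 (adjusted p = 0.203) without the library with few genes.

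Counted over the members, the cachectic and control mice did not overlap in TPM for 2 of 10 at 6 weeks (Sat1 and Oaz2, background 18.9%) and for 3 of 10 at 8 weeks (Sms, Sat1 and Oaz2, background 6.34%). For cachectic against non-cachectic mice, this was so for 2 of 10 at 6 weeks (Sat1 and Oaz2, background 16.9%) and 1 of 10 at 8 weeks (Sms, background 4.88%).

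**Figure D2:**
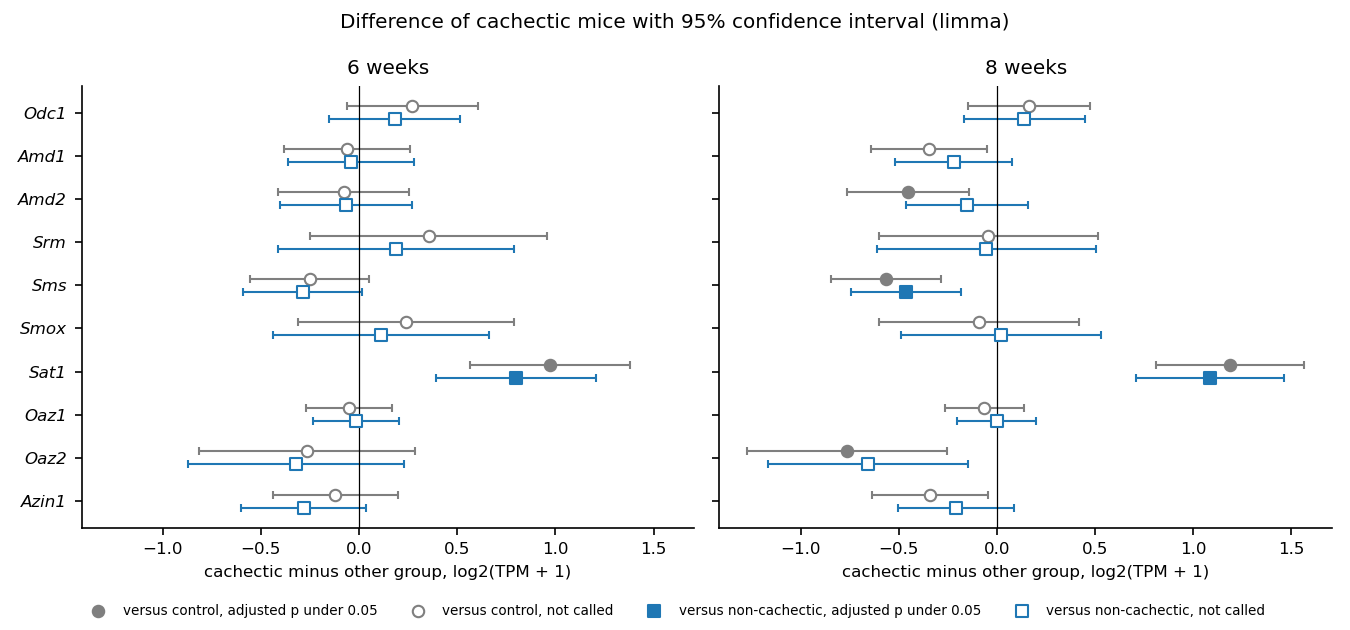
Difference of mean log2(TPM + 1), cachectic minus control (gray circles) or minus non-cachectic mice (blue squares), for each member at 6 and 8 weeks, with 95% confidence intervals from limma; filled symbols mark an adjusted p under 0.05. Sat1 is the filled symbol to the right of 0 in both panels, at 0.97 and 1.19 against control, and Sms is filled to the left of 0 against both groups at 8 weeks.

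At 4 weeks no member was called against control or non-cachectic mice by limma, where 0.0221% and 0.0295% of all genes were called. In each comparison 1 member had an unadjusted p under 0.05, beside 728 and 697 of all genes. These were Azin1 against control (log2 difference -0.33, adjusted p = 0.886) and Sat1 against non-cachectic mice (0.55, adjusted p = 0.642). Sat1 already spread from 20.04 to 40.2 TPM in the 5 cachectic mice at 4 weeks, with 4 of 5 above every non-cachectic mouse and 3 of 5 above every control. At 2 weeks, Amd2 (-0.53, adjusted p = 0.0216) and Azin1 (-0.58, adjusted p = 0.0122 by limma) were lower than in control mice, 2 of 10 members where 29.3% of all genes were called, 1.41% higher and 27.8% lower. The median of all genes differed by -0.42 in that comparison, which holds 2 libraries with few genes in the cachectic group and 3 with high liver transcripts in the control group. Neither call of this week was kept without cachectic replicate 3 or 4 or without control replicate 2 (0 members called), and Azin1 alone was called without control replicate 5. Without cachectic replicate 3, Amd2 was -0.28 (adjusted p = 0.245 by limma). Over 11 other limma fits Amd2 ranged from -0.73 to -0.0097 and Azin1 from -0.62 to -0.10, with 5 of 11 called for each, and the value nearest to 0 came from quantile normalization for Amd2 and from median-ratio scaling for Azin1. Cachectic and non-cachectic mice did not differ at 2 weeks by limma in any member or any gene (0%), with 0 members and 1709 genes at an unadjusted p under 0.05.

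Non-cachectic mice differed from control mice in no member at any week by limma. Over all genes, 4.43% were called at 2 weeks and 0% at 4, 6 and 8 weeks (0, 0 and 0 genes). At an unadjusted p under 0.05 there was 1 member at 2 weeks, Azin1, beside 1688 genes. There was none at the later weeks, beside 68, 100 and 55 genes at 4, 6 and 8 weeks.

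Within the cachectic group from 4 to 8 weeks, no member passed the test, where 2.07% of all genes did. At an unadjusted p under 0.05 by limma there were 3 members, beside 1914 of all 13578 genes. The log2 differences between 8 and 4 weeks were 0.65 for Sat1 (0.27 to 1.03, adjusted p = 0.0514 by limma), -0.45 for Sms (adjusted p = 0.0789) and -0.72 for Oaz2 (adjusted p = 0.13). All 7 mice at 8 weeks had less Sms than any of the 5 mice at 4 weeks, and 3 of the 7 had more Sat1 than any of them. Without cachectic replicate 3 at 8 weeks, Odc1 and Sat1 were called in this comparison. The share of all genes called in that fit is not given here, so that these calls do not set the members apart from other genes. The change over time was also compared between groups. Cachectic minus control, 8 minus 4 weeks, gave 0.80 for Sat1 (0.24 to 1.35, adjusted p = 0.466) and -0.49 for Sms (-0.91 to -0.08, adjusted p = 0.562). Of all 13578 genes, 0 were called there by limma, with 2 members and 1022 genes at an unadjusted p under 0.05. Within the control and the non-cachectic group, the member furthest from 0 between 8 and 4 weeks was Sat1 with -0.15 and Amd2 with -0.31, and neither was called (adjusted p = 1 for both).

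The genes around the pathway were read from lists given beside the members. At 2 weeks against control, 1 of 3 other enzymes and regulators, 1 of 2 genes of ornithine supply, 2 of 8 of S-adenosylmethionine supply and salvage 3 of 6 of transport and 0 of 4 of the hypusine pathway were called lower and none higher, where 27.8% of all genes were lower. The values below are those of 6 and 8 weeks. Of 3 tested among the other enzymes and regulators, Paox, which oxidizes the acetylated polyamines made by Sat1, was higher at 6 weeks. Its mean was 11.5 ± 1.57 TPM (SD, n = 5) in cachectic, 7.00 ± 0.77 TPM in control and 6.94 ± 0.51 TPM in non-cachectic mice, all 5 cachectic mice lay above both groups, and the log2 differences were 0.64 and 0.65 (adjusted p = 0.032 and 0.0321 by limma). At 8 weeks 6 of 7 lay above both groups, and the differences were 0.44 (adjusted p = 0.0933) and 0.51 (adjusted p = 0.0486). They were 0.63 (adjusted p = 0.00251) and 0.70 (adjusted p = 0.000796 by limma) without cachectic replicate 3. Azin2 and Oaz3 were too low to test.

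Of 6 tested transport genes, Slc3a2, the heavy chain of several amino acid transporters that has also been linked to polyamine export, was higher in all 4 comparisons at 6 and 8 weeks. It rose from 16.7 ± 1.46 TPM in control to 43.2 ± 11.6 TPM in cachectic mice at 6 weeks (n = 5 each, log2 difference 1.28, adjusted p = 0.000394 by limma). At 8 weeks it was 43.1 ± 16.2 TPM (n = 7) against 18.1 ± 1.96 TPM, a log2 difference of 1.07 (adjusted p = 0.000479), and compared with the non-cachectic group it differed by 1.26 and 1.09. The 8-week differences of Slc3a2 were 1.36 and 1.37 without cachectic replicate 3. Slc22a3, a cation transporter, was lower at 8 weeks (0.68 ± 0.33 TPM against 1.34 ± 0.30 TPM in control mice, log2 difference -0.49, adjusted p = 0.0338, and -0.50 against non-cachectic mice, adjusted p = 0.0351). Its level is low, so that the difference on the log2(TPM + 1) scale understates the change. It was -0.48 against each group without cachectic replicate 3 (adjusted p = 0.0404 and 0.0401 by limma).

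Of 8 tested genes of S-adenosylmethionine supply and methionine salvage, which recycles the by-product of Srm and Sms, none was called at 6 weeks by limma and 1 at 8 weeks, where 14.8% and 12.9% of all genes were called. Adi1, an enzyme of this salvage, was 33.9 ± 9.98 TPM in cachectic and 53.1 ± 4.35 TPM in control mice at 8 weeks, with 7 of 7 cachectic mice below all controls (log2 difference -0.69, adjusted p = 0.0074 by limma), and -0.58 (adjusted p = 0.0309) against non-cachectic mice. Without cachectic replicate 3 the differences were -0.51 (adjusted p = 0.0251 by limma) and -0.40 (adjusted p = 0.0976), so that the second call was lost. Mat2a, which makes S-adenosylmethionine outside the liver, gave -0.18 (adjusted p = 0.728) against control at 8 weeks and 0.15 (adjusted p = 0.737) without that library. Of 2 tested genes of ornithine supply, Oat, which connects ornithine with glutamate, was higher at 6 weeks against non-cachectic mice (log2 difference 0.42, adjusted p = 0.0492), with 0.38 (adjusted p = 0.0751) against control. At 8 weeks it was 0.28 and 0.29 against control and non-cachectic mice and not called, and it was called at 0.40 and 0.41 without cachectic replicate 3 (adjusted p = 0.0064 and 0.00578 by limma). Arg1, the arginase of liver and some macrophages, reached a mean of 21.1 ± 45.2 TPM in cachectic mice at 6 weeks against 2.08 ± 1.22 TPM in control mice. A single cachectic mouse lay above all controls there, and the log2 difference of 0.49 was not called (adjusted p = 0.825). Of 4 genes of the hypusine pathway, which uses spermidine to modify a translation factor, Dhps was higher at 8 weeks against non-cachectic mice (0.41, adjusted p = 0.0373 by limma), with 0.19 (adjusted p = 0.396) against control. Both were called without cachectic replicate 3, at 0.54 (adjusted p = 0.000587) and 0.33 (adjusted p = 0.0439 by limma).

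**Figure D3:**
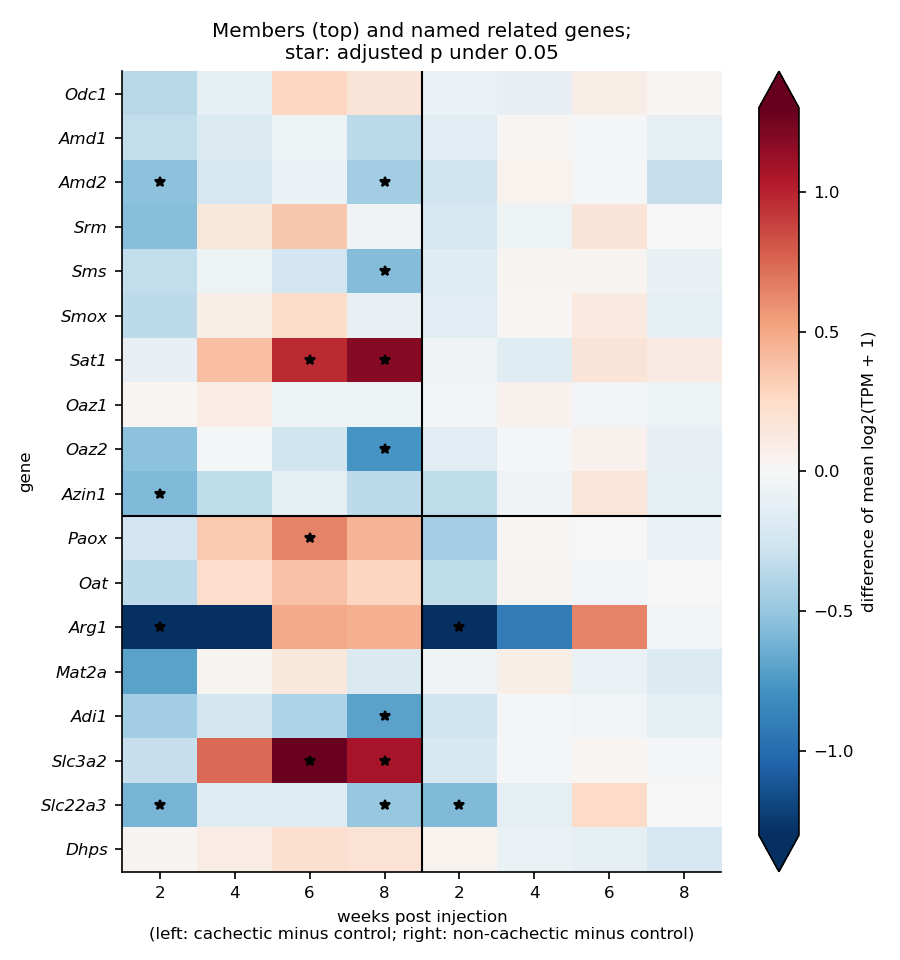
Difference of mean log2(TPM + 1) against control for the 10 members (above the line) and 8 related genes (below it), by weeks post injection, for cachectic mice on the left and non-cachectic mice on the right; red is higher, blue is lower, and a star marks an adjusted p under 0.05. Sat1, Paox and Slc3a2 are red at 6 and 8 weeks on the left side, with Sat1 at 0.97 and 1.19, and the members carry no star on the right side.

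The calls differed in how far they held under other processing. Under 11 other limma fits, Sat1 against control stayed called in 11 of 11 at 6 weeks (log2 difference 0.78 to 1.03) and in 11 of 11 at 8 weeks (0.92 to 1.34), and it stayed called without any single mouse of the groups compared (10 of 10 and 12 of 12). By Dunn's test on ranks, its adjusted p was 0.0687 at 6 weeks and 0.0255 at 8 weeks. Sat1 against non-cachectic mice was called in 10 of 11 fits at each week, with an adjusted p of 0.0647 after median-ratio scaling at 6 weeks and of 0.0767 in a fit of the compared groups alone at 8 weeks, and its adjusted p by Dunn's test was 0.159 and 0.0623. Sms against control at 8 weeks was called in 10 of 11 and in 12 of 12, with an adjusted p of 0.0862 in a fit of the compared groups alone and of 0.0266 by Dunn's test. Oaz2 was called in 10 of 11 and in 6 of 12 (-0.92 to -0.37 over the other fits), and Amd2 in 6 of 11 and in 6 of 12, with an adjusted p by Dunn's test of 0.0341 for Oaz2 and 0.0602 for Amd2.

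**Figure D4:**
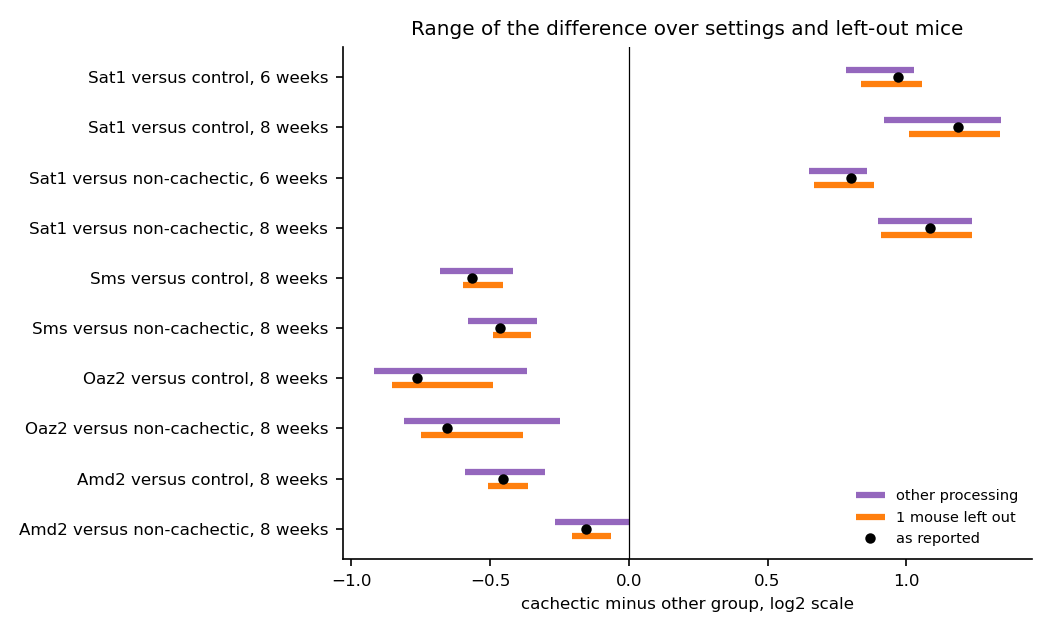
Log2 difference of 4 members as reported (black points), with the range over other processing (purple bars) and over leaving out 1 mouse in turn (orange bars), for cachectic mice against the group named on the left. The bars of Sat1 stay right of 0 and those of Sms and Oaz2 left of 0, with Sat1 against control at 8 weeks between 0.92 and 1.34 over other processing.

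The genes most like the called members over the 12 condition means were listed as a description, by Pearson's r of mean log2(TPM + 1). For Sat1 they were Snhg1 (r = 0.991), Mt1 (0.989) and Arpc3 (0.988). For Sms they were Barx2 (0.98), Ak1 (0.98) and Sdhc (0.978), for Oaz2 Shox2 (0.989), Sspn (0.988) and Inppl1 (0.988), and for Amd2 Lsmem2 (0.964), Btbd10 (0.959) and Mus81 (0.957). The 12 means share libraries that stand apart, and the genes were picked as the highest of all tested.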

How the data were processed

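Diaphragm RNA from 62 mice was sequenced as 100-bp paired-end reads. Per the methods, the authors used CLC Genomics Workbench to align quality-trimmed reads to the mm10 (GRCm38) genome, and they deposited 1 table of TPM values for 47643 genes. The labels name a stranded library kit and the methods a TruSeq kit without that word, and the annotation, the use of strand and the division of shared reads are not given in the sources used here. TPM keep no read counts, so that the depth is unknown and no counting interval was given. Groups, weeks and replicate numbers came from the sample labels, and no 2 libraries were identical.

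TPM were transformed as log2(TPM + 1), and genes that reached 1 TPM in 5 mice or more (13578 genes) were fitted with limma 3.58.1 (R 4.3.3), with a mean for each of the 12 conditions and a trended spread over all mice. P-values were adjusted with the Benjamini-Hochberg method over all genes tested, and the threshold was 0.05. The study itself had used rank tests (Kruskal-Wallis with Dunn's test), which were run as an alternative. The summed TPM of Amd1 and Amd2 were compared with exact two-sided permutation tests. All members are named, and related genes are named where they were called at 6 or 8 weeks, beside Arg1 and Mat2a, and the 3 genes most like each called member by the correlation of condition means. The members and lists were chosen with earlier results of these data known. The fitting code was tested on simulated data. Alternatives covered the pseudocount, the filter, the scaling, library weights, sets of libraries and each mouse left out in turn. Tables and plots were made with Python 3.11.15, pandas 2.3.3 and matplotlib 3.10.9.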

Additional observations from a re-analysis of the deposited data

Results flagged for a closer look

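In each of the 12 conditions the highest and the lowest mouse of each member were compared with the rest by Dixon's gap criterion, and 13 of 120 sets held a mouse that stood apart. Chance alone gives about 1 in 20 for a single set of normally distributed values. The 120 sets share libraries and are not independent, so that the 13 cannot be set against this rate. 5 of the 13 were libraries with few genes. These were cachectic replicate 3 at 8 weeks for Srm (1.70 TPM, others 11.9 to 18.8), Sms (5.91 TPM, others 10.05 to 11.2) and Smox (0.77 TPM, others 4.51 to 6.96), and non-cachectic replicate 5 at 2 weeks for Smox (0.88 TPM, others 5.08 to 5.37) and Oaz2 (45.1 TPM, others 125 to 138).

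The other 8 were in libraries that did not stand apart in the number of genes. Control replicate 1 was low for Odc1 at 2 weeks (24.7 TPM, others 37.2 to 42.1), for Srm at 4 weeks (9.13 TPM, others 11.6 to 12.5), for Smox at 6 weeks (3.80 TPM, others 4.88 to 5.27) and for Sat1 at 8 weeks (13.3 TPM, others 19.5 to 20.4). These are 4 different mice. Control replicate 5 at 6 weeks was high for Amd2 (5.05 TPM, others 4.00 to 4.08), and non-cachectic replicate 5 at 8 weeks was high for Sms (15.6 TPM, others 13.7 to 13.99). Cachectic replicate 1 was high for Sat1 at 2 weeks (22.0 TPM, others 18.3 to 19.3), and the mouse with this number at 8 weeks was low for Oaz1 (154 TPM, others 184 to 202).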

How the results depend on the processing

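Over all alternatives that kept every mouse of the comparison or left out a set of libraries, 513 values were labelled as unchanged. Of the rest, 45 gained a call, 29 lost one and 32 changed sign. The values include the summed TPM of Amd1 and Amd2. They also include log2 ratios of mean TPM, which have no test and counted as unchanged within 1 SD of the reported difference. A ratio of opposite sign was among these where the member had not been called, as for Srm against control at 8 weeks. The replicate block was run within weeks, although same-numbered mice did not vary together (correlations of -0.63 to 0.39, and no comparison with every pair above 0.1). With the replicate block, 2 members were called against control at 2 weeks, 1 and 1 at 6 weeks and 4 and 2 at 8 weeks against control and non-cachectic mice, as without it, and the 1 change of sign was Smox against non-cachectic mice at 8 weeks (-0.15).

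The median gene differed by -0.42 against control at 2 weeks, 0.17 at 6 weeks and -0.09 at 8 weeks as deposited, and by at most 0.07 in size after median-ratio or quantile scaling. Members called changed as follows, with 2 at 2 weeks (against control), 1 and 1 at 6 weeks, and 4 and 2 at 8 weeks as reported. Only the larger changes are listed, so that a count not listed may differ from the one reported. With median-ratio scaling the counts were 1 at 2 weeks, 3 and 2 at 6 weeks, 4 against non-cachectic mice at 8 weeks and 3 for 8 against 4 weeks within the cachectic group (0 as reported). Without mitochondrially encoded genes they were 2 and 3 at 6 weeks and 3 within the cachectic group, and with quantile normalization 0 at 2 weeks, 2 and 3 at 6 weeks and 4 within the cachectic group. With array quality weights they were 0 at 2 weeks, 1 and 2 at 4 weeks (0 as reported), 6 and 4 at 6 weeks, 6 against non-cachectic mice at 8 weeks, 6 within the cachectic group, and 4 and 1 for the change from 4 to 8 weeks against control and non-cachectic mice. The weights were 5.8e-05 for cachectic replicate 3 at 8 weeks and 1.5e-09 for cachectic replicate 5 at 2 weeks. Both mice were thus in effect left out, and the latter is not a library with few genes. Excluding the 4 libraries with few genes gave 0 at 2 weeks, 3 and 3 at 6 weeks, 5 against non-cachectic mice at 8 weeks, 4 within the cachectic group and 1 for the change against control. Excluding the 4 libraries with the highest liver markers, chosen after seeing the data, gave 0 at 2 weeks. The related genes and the Amd sum without cachectic replicate 3 at 8 weeks were also added after seeing the data. A fit of the compared groups alone gave 0 at 2 weeks and 1 (Sat1) and 0 at 8 weeks. At 6 weeks it gave 5 against control (Odc1, Srm, Sms, Sat1 and Oaz2) and 2 against non-cachectic mice (Sat1 and Oaz2). Dunn's test on ranks gave 0 at 2 weeks and 0 and 0 at 6 weeks (0 genes called in all). It gave 0 members against non-cachectic mice at 8 weeks, where 607 genes were called. The cause of these changes was not tested. Apart from Dunn's test, the share of all genes called in each fit is not given here, so that these counts do not set the members apart from other genes.

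Signs changed for differences that had not been called. At 2 weeks against control, Odc1 and Sms were -0.37 (95% confidence interval -0.70 to -0.03) and -0.32 (-0.62 to -0.02) as reported. Odc1 was 0.13 and Sms 0.16 with median-ratio scaling, 0.024 and 0.16 with quantile normalization, and Sms was 0.023 without the libraries with few genes. At 6 weeks against non-cachectic mice, Smox was -0.020 with median-ratio scaling, -0.0254 without mitochondrially encoded genes and -0.044 with quantile normalization, Amd1 was 0.030 with array weights, and Oaz1 was 0.013 without the libraries high in liver markers. At 8 weeks against control, Srm was 0.062 (median-ratio), 0.042 (quantile), 0.31 (array weights, called) and 0.33 (without few-gene libraries), Smox was 0.18 and 0.19 in the last 2, and Oaz1 was 0.095 (median-ratio). At 8 weeks against non-cachectic mice, Srm was 0.029, 0.017, 0.38 (called) and 0.32 in the same order, Smox was -0.049 with a pseudocount of 0.1 and -0.11 without mitochondrially encoded genes, Oaz1 was 0.13 (median-ratio), 0.061 (array weights) and 0.0023 (without few-gene libraries), and Amd1 and Amd2 were 0.0091 and 0.0045 with array weights. Dunn's z was 0.976 for Srm and 0.465 for Smox against control and 1.09 for Srm against non-cachectic mice at 8 weeks.

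With 1 mouse left out in turn, the members called were 0 to 6 against control at 2 weeks, 0 to 1 against non-cachectic mice at 6 weeks, 2 to 5 and 1 to 3 at 8 weeks, and 0 to 2 within the cachectic group. These counts, too, are given without the share of all genes called. Differences that changed sign were those of Amd1 against control (-0.20 to 0.014) and non-cachectic mice (-0.18 to 0.034), Amd2 (-0.13 to 0.0054) and Oaz1 (-0.046 to 0.025) against non-cachectic mice at 6 weeks, Srm (-0.15 to 0.33) and Smox (-0.19 to 0.19) against control at 8 weeks, and Srm (-0.15 to 0.32), Smox (-0.057 to 0.31) and Oaz1 (-0.065 to 0.044) against non-cachectic mice at 8 weeks.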
